A study of Mus musculus with 12 samples.

Results

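The zinc finger transcription factor genes described here were chosen by name: every gene called Zfp with a number, Zbtb, Zscan or Klf with a number that was listed for either of 2 retinoid X receptor (RXR) agonists in mouse mammary tumors. The rule found 53 genes among the 2876 distinct gene symbols of both tables. Of these, 15 were among the 1589 genes listed for V-125, 43 were among the 1784 genes listed for bexarotene, and 5 were in both. No gene had to be left out for counts of 0 in all tumors of a group. The listing itself was selective, because both tables held only genes whose unadjusted p-value in the authors' own comparison was below 0.05. A gene counted here had therefore already differed between the same tumors, and a gene not listed has no value here and cannot be called unchanged. The name rule matched 471 protein-coding genes of the GENCODE mouse annotation, and 419 of them were in neither table.

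The tumors came from female MMTV-Neu mice, which develop mammary tumors because the Neu (HER2) oncogene is driven by the mouse mammary tumor virus promoter, active mainly in mammary epithelium. All 12 tumors carried this transgene, and 4 each came from mice on the Control diet, on a V-125 diet and on a bexarotene diet; both agonists were given at 100 mg/kg of diet for 10 days. The age of the mice is not given in the sources used here. Each tumor was divided, and polyA RNA of a frozen piece, with its cell types not separated, was sequenced. Each tumor came from a different mouse, and the same 4 Control tumors served both comparisons. Reads counted on genes ranged from 15571690 to 22574865 per tumor in the 8 V-125 and Control tumors, the only ones for which per-tumor values were used. For bexarotene the authors' group means were used, so its values carry no spread and no test.

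Zinc finger proteins of the C2H2 class fold short loops around a zinc ion held by a pair of cysteines and a pair of histidines, and arrays of such fingers read DNA sequence. The Klf proteins carry a conserved finger array at the C terminus and bind GC-rich promoters, whereas Zbtb proteins add a BTB domain and Zscan proteins a SCAN domain through which they pair with other proteins. Many Zfp proteins carry a KRAB box, which recruits the co-repressor Trim28 and through it the histone methyltransferase Setdb1, a pathway best known for silencing retroelements.

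The first finger of the Klf genes and the KRAB A box of the Zfp genes are shown as examples of the DNA-binding element and of the repressor-recruiting element that these genes encode. The sequences are coding-strand bases of the longest annotated coding transcript in GENCODE on build GRCm38, and each lies within 1 exon. Capitals mark the codons of the zinc-binding cysteines and histidines in the fingers. The Klf2 finger lies at chr8:72320170-72320238 on the plus strand, the Klf4 finger at chr4:55529722-55529790 on the minus strand and the Klf13 finger at chr7:63937971-63938039 on the minus strand.
Klf2: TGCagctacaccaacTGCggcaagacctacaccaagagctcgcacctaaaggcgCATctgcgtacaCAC
Klf4: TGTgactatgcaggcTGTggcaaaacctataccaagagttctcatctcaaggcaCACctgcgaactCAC
Klf13: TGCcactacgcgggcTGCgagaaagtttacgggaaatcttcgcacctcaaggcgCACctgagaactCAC

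In the KRAB A boxes, capitals mark the codons of the residues fixed in the pattern searched, which was phenylalanine, any residue, aspartate, valine, any residue, valine or isoleucine, any residue and phenylalanine. The boxes are those of Zfp940 (chr7:29846925-29846948, minus strand), of Zfp977 (chr7:42582997-42583020, minus strand), of the neighbours Zfp943 (chr17:21990791-21990814, plus strand) and Zfp995 (chr17:21882049-21882072, minus strand), and of Zfp251 (chr15:76870373-76870396, minus strand), the only gene with this pattern whose bexarotene mean was below the Control mean.
Zfp940: TTCagaGACGTGgccGTAgacTTC
Zfp977: TTTgatGATGTTcatGTCcacTTC
Zfp943: TTCaagGATGTGgctGTGgacTTC
Zfp995: TTCaagGATGTGgctGTGgacTTC
Zfp251: TTCcaaGATGTGgctGTGtacTTC

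In V-125-treated tumors, 9 of the 15 listed zinc finger genes had a higher mean than in Control tumors and 6 had a lower mean. The means of 51.4% of all genes in that table were higher with V-125. The tumor groups did not overlap for 10 genes. Zfp37, Zfp472, Zfp775, Zfp862-ps, Zfp940 and Zfp955b were higher in every V-125 tumor than in any Control tumor, 6 genes beside 21.1% of all listed genes, and Zfp239, Zfp46, Zfp637 and Zscan21 were lower, 4 genes beside 17.6%. At least 2-fold differences of means were found for 4 genes with higher means (Zfp354c, Zfp37, Zfp775 and Zfp940; 22.6% of all listed genes) and for 1 with a lower mean (Zbtb16; 22.0%). Since listing already required a difference in this contrast, nothing is read from these shares. The median log2 ratio of means was 0.53 over the 15 genes and 0.36 over the 1505 listed genes with means above 0 in both groups. In RNA of unsorted tumor pieces, a change in the number of cells of a type and a change in RNA per cell cannot be told apart.

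None of the 15 genes passed a Benjamini-Hochberg adjusted p of 0.05 with the edgeR quasi-likelihood test. Adjustment was over 15310 genes, an estimate of the number in the authors' own adjustment. The edgeR adjusted p-values of the 15 lay between 0.488 and 0.839, and 0.0% of the 1333 fitted genes were called. At an unadjusted p under 0.05, edgeR passed 12 of the 15 genes, beside 71.5% of the 1333, and limma-voom passed 11, beside 66.4%. DESeq2 called 8.18% of the 1589 listed genes, among them 1 zinc finger gene, Zfp775. With 4 tumors per group the two-sided exact permutation test cannot give a p below 0.0286, the value of each of the 10 genes whose groups did not overlap. All levels in the following paragraphs are normalized counts, the read count divided by 1 size factor per tumor, unless FPKM is named, the count scaled to gene length and to the reads counted in that tumor.

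Klf2, which maintains quiescence in endothelium and in T cells, was the only Klf gene listed for V-125. Its normalized count was 473.1, 198.5, 243.3 and 242.2 in the 4 V-125 tumors and 253.6, 175.7, 133.4 and 128.0 in the 4 Control tumors. V-125 replicate 1 stood above all others, and the remaining V-125 tumors overlapped the Control tumors. The means were 289.3 ± 124.3 and 172.7 ± 58.0 (SD, n = 4 each), and the log2 fold change was 0.75 with a standard error of 0.34 (edgeR adjusted p = 0.819). Without V-125 replicate 1 the log2 fold change was 0.40. The same tumor held the highest counts of the lymphocyte markers Cd2 and Mzb1. The T-cell marker Cd2 was at 195.2 there, at 23.8 or less in the other V-125 tumors and at 5.59 or less in Control tumors. Mzb1, a plasma cell gene, was at 48.0 in that tumor and at 5.96 or less in the other 7. Kdr, the endothelial VEGF receptor, was the only 1 of 6 endothelial markers listed for V-125, and none was listed for bexarotene. Kdr did not overlap between the groups, with 538.5 to 834.9 in V-125 tumors and 251.3 to 497.7 in Control tumors. Among the V-125 tumors it was lowest in replicate 1. The part of these cells in the Klf2 value was not tested.

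Zbtb16 encodes PLZF, a repressor that directs the development of innate-like T cells and maintains germline stem cells. It was at 22.5, 20.9, 11.9 and 44.4 in V-125 tumors and at 184.5, 137.6, 29.6 and 18.8 in Control tumors. The Control tumors fell into a high pair and a low pair, and the low pair lay within the range of the V-125 tumors. The means were 24.9 ± 13.8 and 92.6 ± 81.4 (SD, n = 4 each), a ratio of 0.269 (edgeR log2 fold change -1.88, standard error 0.75, adjusted p = 0.764). Leaving out Control replicate 1 gave a log2 fold change of -1.30.

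Zscan21 was the only Zscan gene listed for V-125 and, at a mean of 12.5 FPKM over the 8 tumors, among the zinc finger genes with the most RNA per length. It was at 622.3, 585.1, 675.2 and 558.3 in V-125 tumors and at 826.6, 886.6, 810.6 and 780.2 in Control tumors. Every V-125 tumor lay below every Control tumor. The group means were 610.3 ± 50.6 and 826.0 ± 44.8 (SD, n = 4 each), and the log2 fold change was -0.44 with a standard error of 0.14 (edgeR adjusted p = 0.672).

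The KRAB A box pattern was found in 4 of the genes listed for V-125, Zfp354c, Zfp472, Zfp940 and Zfp955b, and the mean of each was higher with V-125. Of the 10 genes without it that encode a protein, 4 were higher and 6 lower. These 10 included Klf2, Zbtb16 and Zscan21, so pattern and family were mixed, and nothing is read from these counts. Zfp940, whose box is printed above, was at 40.9, 22.8, 25.8 and 24.3 in V-125 tumors and at 0.0, 19.7, 8.8 and 8.5 in Control tumors. The groups did not overlap, but the gene was the least abundant of the 15 per length, with a mean of 0.172 FPKM, and its Control values rest on raw counts of 0, 17, 11 and 10 reads. Its log2 fold change was 1.61 with a standard error of 0.76 (edgeR adjusted p = 0.839), and 1.22 without Control replicate 1. Zfp955b was at 74.6, 82.6, 77.5 and 76.1 in V-125 tumors and at 28.8, 37.0, 43.1 and 57.2 in Control tumors. Its V-125 tumors were close together and all above the Control tumors, with means of 77.7 ± 3.49 and 41.5 ± 12.0 (SD, n = 4 each). Zfp955b shared 22.6% of its 75-base stretches with other genes, mostly Zfp955a, so its reads may have been split between copies. Zfp472 had means of 128.7 ± 23.8 and 82.4 ± 21.8 (SD, n = 4 each) with no overlap, its lowest V-125 tumor at 110.2 and its highest Control tumor at 107.5. Zfp354c had means of 46.9 ± 17.6 and 23.1 ± 5.73 (SD, n = 4 each), and V-125 replicate 4, at 24.3, lay within the Control range.

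Among the Zfp genes without that pattern, Zfp775 had the smallest edgeR p-value of the 15. It was at 203.4, 142.5, 124.1 and 152.3 in V-125 tumors and at 49.6, 77.5, 86.3 and 64.9 in Control tumors. The lowest V-125 tumor was above the highest Control tumor. The log2 fold change was 1.16 with a standard error of 0.29 (edgeR adjusted p = 0.488), and DESeq2 gave the same value of 1.16 and an adjusted p of 0.0143. Zfp775 lies on chromosome 6 near Zfp862-ps, a transcribed pseudogene of the family, with 67.2 kb between them. Zfp862-ps had means of 368.5 ± 46.8 and 254.3 ± 65.6 (SD, n = 4 each), its lowest V-125 tumor at 321.5 just above its highest Control tumor at 317.6. Zfp37 was at 149.2, 114.9, 74.5 and 73.0 in V-125 tumors and at 31.1, 70.5, 42.3 and 58.0 in Control tumors. Its groups did not overlap, although the nearest tumors, at 73.0 and 70.5, were close, and its log2 fold change was 1.03 with a standard error of 0.38 (edgeR adjusted p = 0.752). Zfp385b, with means of 969.7 ± 191.9 and 690.4 ± 138.2 (SD, n = 4 each), overlapped, since V-125 replicate 2 at 776.0 lay below Control replicate 4 at 797.3.

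The lower Zfp genes included the most abundant of the 15. Zfp637 had the highest mean per length, 19.5 FPKM over the 8 tumors, and was at 775.6, 946.1, 804.3 and 480.1 in V-125 tumors and at 1092, 1142, 946.4 and 1012 in Control tumors. The groups met at a single point, with V-125 replicate 2 and Control replicate 3 less than 1 count apart, and the log2 fold change was -0.48 with a standard error of 0.21 (edgeR adjusted p = 0.791). Its neighbour Zfp239, 16.1 kb away on chromosome 6, was at 52.1, 80.7, 68.5 and 65.6 in V-125 tumors and at 89.9, 132.9, 115.0 and 125.5 in Control tumors. Zfp239 was lower in every V-125 tumor, with a log2 fold change of -0.79 and a standard error of 0.28 (edgeR adjusted p = 0.704). Zfp46, at a mean of 12.0 FPKM, was at 1033, 819.7, 951.2 and 782.5 in V-125 tumors and at 1395, 1487, 1106 and 1479 in Control tumors. Here too the groups were separate, with a log2 fold change of -0.61 and a standard error of 0.16 (edgeR adjusted p = 0.526). Zfp521, a multi-finger regulator of progenitor cells with 27 finger patterns, the most of the 53 genes, had means of 232.6 ± 28.9 and 384.7 ± 157.9 (SD, n = 4 each). Its V-125 tumors, 197.6 to 256.5, overlapped Control tumors that ranged from 206.1 to 530.6.

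**Figure D1:**
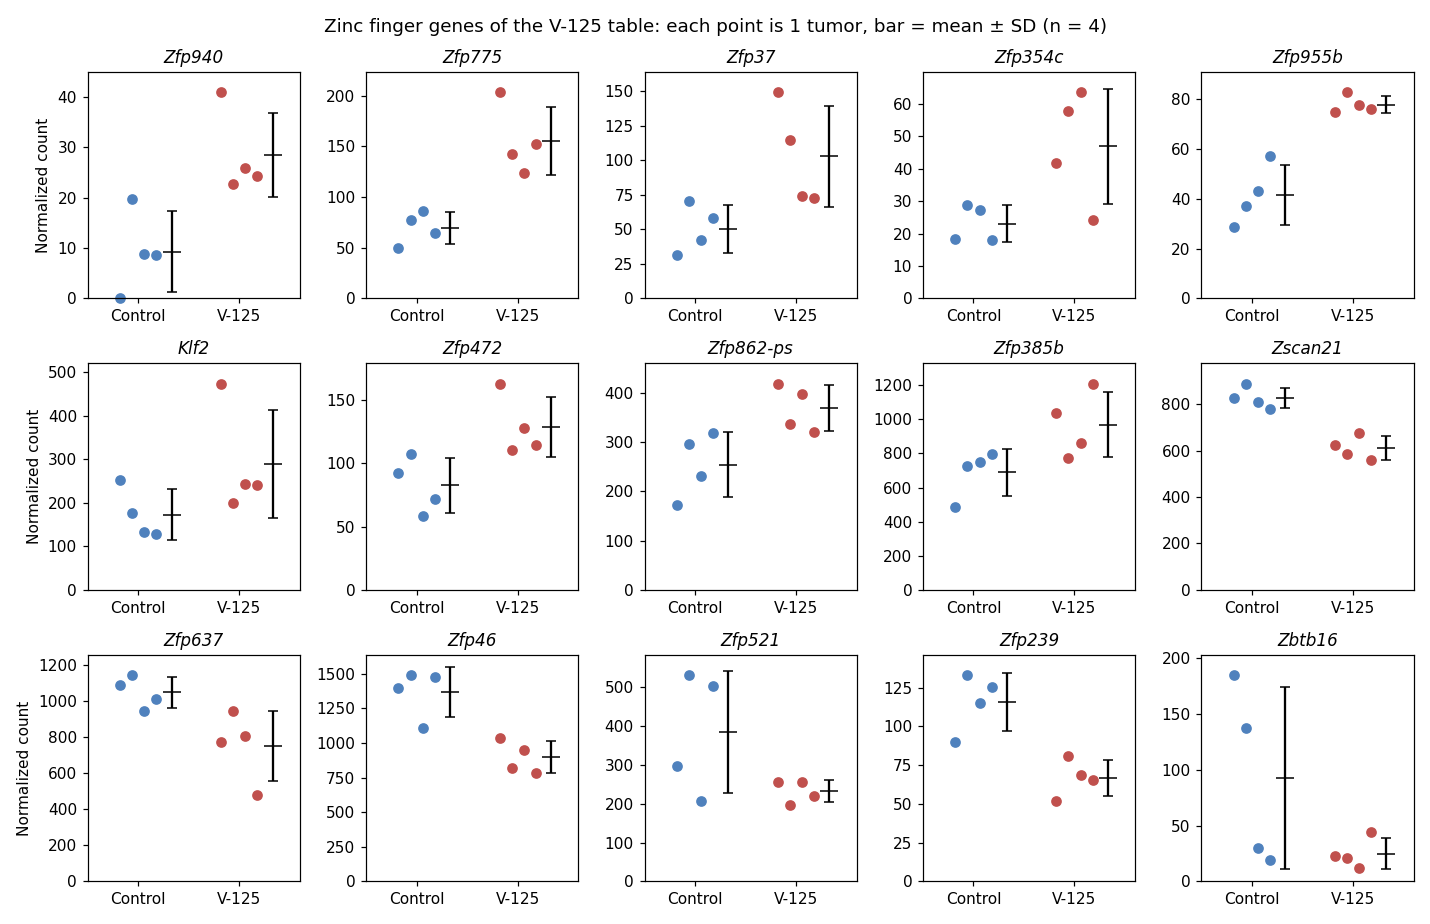
Normalized counts (linear axes from 0) of the 15 zinc finger genes listed for V-125, ordered from the largest to the smallest ratio of means; each point is 1 tumor (blue Control, red V-125), and bars show the mean ± SD of 4 tumors. The groups do not overlap for 10 genes, whereas for Klf2 the highest point is V-125 replicate 1 and for Zbtb16 the Control tumors split into a high pair and a low pair.

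For bexarotene, 34 of the 43 listed zinc finger genes had a higher mean than in Control tumors and 9 had a lower mean, in a table in which 43.3% of all listed genes were higher. The median log2 ratio of means was 0.72 over the 43 genes and -0.56 over the 1709 listed genes with both means above 0. At least 2-fold higher means were found for 7 genes (16.2% of all listed genes) and at least 2-fold lower means for 2 genes (28.4%). The sizes of the higher ratios were like those of other listed genes, with a median fold of 1.71 over the 34 zinc finger genes and of 1.72 over all 743 listed genes that were higher and above 0. The median Control mean, not scaled to gene length, was 138.9 normalized counts over the 34 higher zinc finger genes, 569.3 over the 9 lower ones and 278.2 over all listed genes, and both groups held abundant and scarce genes, from 6.10 to 1561 in the higher and from 92.2 to 2709 in the lower. These shares carry no test, and the genes were listed because they differed in this contrast.

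Both Klf genes listed for bexarotene had lower means. Klf4, which controls epithelial differentiation and is a reprogramming factor, was at an authors' mean of 43.5 normalized counts with bexarotene and 98.2 in Control, a ratio of 0.443. Klf13, which activates Ccl5 late in T-cell activation, was at 478.4 and 908.9, a ratio of 0.526. Of the 3 Zbtb genes, 2 had lower means and 1 a higher mean. Zbtb16 was at 6.86 with bexarotene and 92.2 in Control, a ratio of 0.0744 and the most distant from 1 of all 43. Zbtb42 was at 346.6 and 513.7, a ratio of 0.675, and Zbtb18, a repressor known from neuronal development, was at 1318 and 842.0, a ratio of 1.57. The Zscan genes were both higher, Zscan26 at 2399 and 1561 (ratio 1.54) and Zscan29 at 932.2 and 564.5 (ratio 1.65).

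The 36 Zfp genes made up most of the bexarotene list, with 31 higher and 5 lower means. The following examples were picked after their values were seen, as those with the highest ratios, apart from Zfp940 (ratio 3.37, the second highest), which is described below with the genes of both tables. Zfp977 had the highest ratio, 4.68, from authors' means of 28.5 with bexarotene and 6.10 in Control. Zfp976, whose gene ends 17.0 kb from that of Zfp977 on chromosome 7, was at 143.3 and 47.8, a ratio of 3.00. Both carry the KRAB A box pattern, and Zfp976 shared 14.0% of its 75-base stretches with other genes. Zfp991, at 73.5 and 25.2 with a ratio of 2.91, shared 80.0% of its stretches, so its count depends on how the authors' counting treated reads that match several genes. Zfp970 (ratio 2.32), Zfp454 (2.26) and Zfp808 (2.20) followed. Zfp932, described as a silencer of endogenous retroviruses, was at 708.3 and 354.2, just under 2-fold, and shared 39.6% of its stretches, mostly with Gm15446. With the 6 genes that shared more than 10% of their stretches set aside, 28 of 37 genes were higher and 9 lower.

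The 5 lower Zfp genes were Zfp251, Zfp36l2, Zfp219, Zfp787 and Zfp46, with ratios from 0.593 to 0.771. Zfp36l2 matches the naming rule but is not a C2H2 protein: no C2H2 pattern was found in it, and it is known as a CCCH protein that binds AU-rich elements and speeds mRNA decay. It was at an authors' mean of 1631 with bexarotene and 2709 in Control, a ratio of 0.602. Zfp148, which binds GC-rich promoters, was among the more abundant higher genes, at 1851 and 1283 (ratio 1.44).

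**Figure D2:**
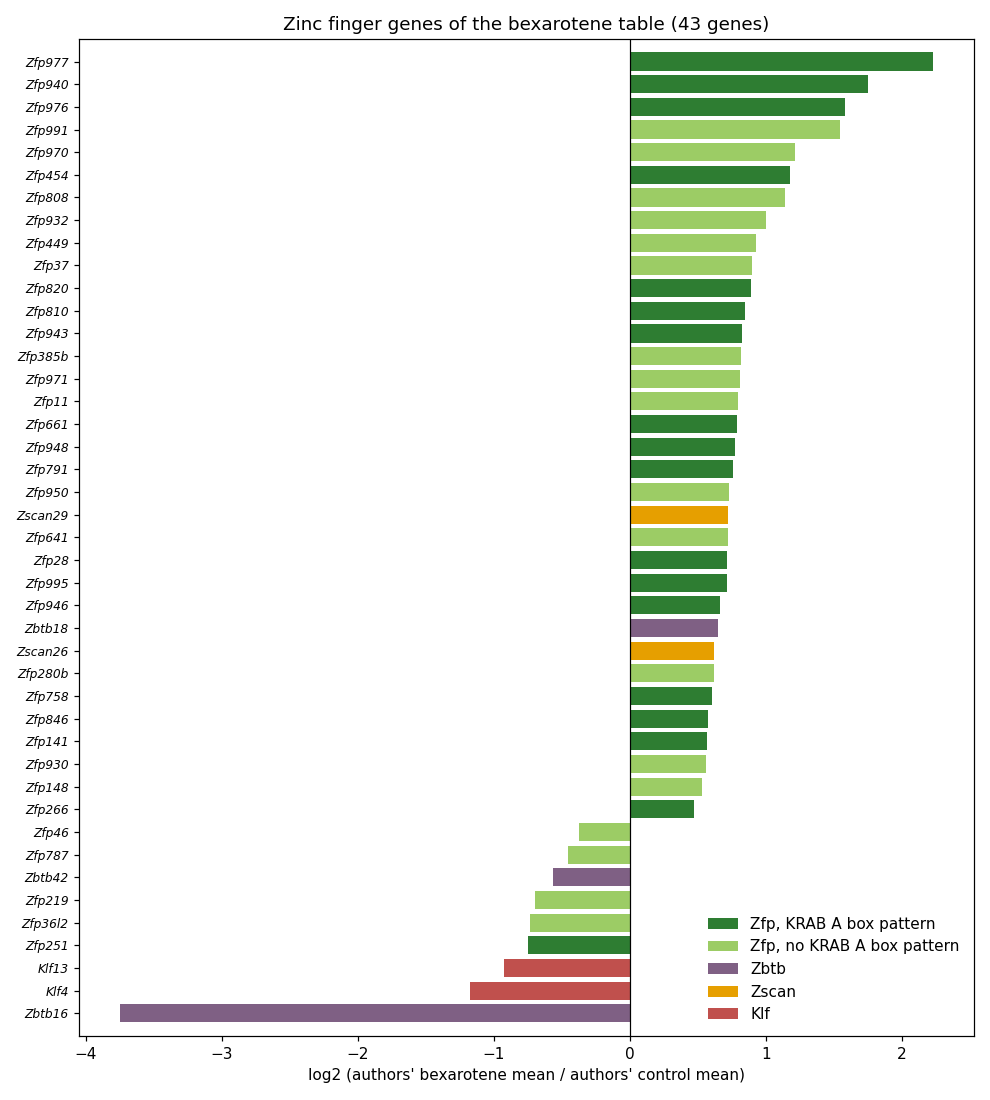
Log2 ratio of the authors' bexarotene mean to the authors' Control mean for the 43 zinc finger genes listed for bexarotene, 1 bar per gene, coloured by family and by presence of the KRAB A box pattern; no error bars are drawn because only group means were used. Bars to the right mark the 34 higher genes up to Zfp977, and bars to the left mark the 9 lower genes down to Zbtb16.

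The 5 genes in both tables can be set side by side, but they cannot show whether both agonists moved the same genes. Each was listed because it differed from the same 4 Control tumors, so like directions are partly built in. Overlap was not limited to these genes, since the 1589 and 1784 listed genes had 2876 distinct symbols. Zfp940 had a ratio to Control of 3.08 with V-125 and 3.37 with bexarotene. Zfp37 had ratios of 2.04 and 1.87, and Zfp385b had 1.40 and 1.76. Zfp46 was lower with both, at 0.656 and 0.771. These 4 bexarotene means lay inside or near the spread of the V-125 tumors: 31.0 beside 22.8 to 40.9 for Zfp940, 93.7 beside 73.0 to 149.2 for Zfp37, 1206 beside 776.0 to 1208 for Zfp385b and 1047 beside 782.5 to 1033 for Zfp46. Zbtb16 had ratios of 0.269 and 0.0744, and its bexarotene mean of 6.86 was below the lowest V-125 tumor, at 11.9, and the lowest Control tumor, at 18.8. The difference between the agonists was not tested, since no spread was used for bexarotene.

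**Figure D3:**
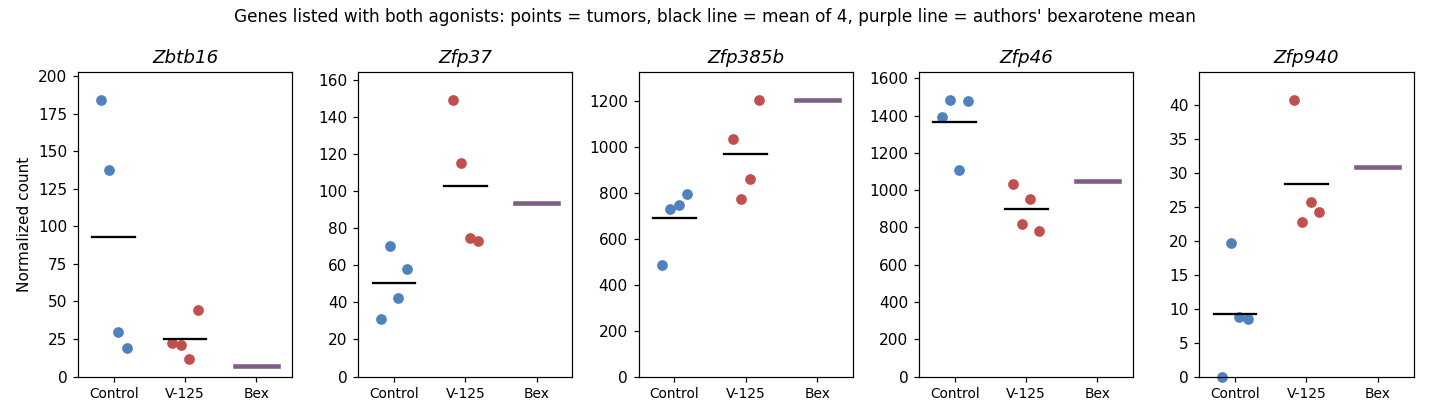
Normalized counts (linear axes from 0) of the 5 zinc finger genes listed for both agonists; points are single Control (blue) or V-125 (red) tumors, black lines are means of 4 tumors, and the purple line is the authors' bexarotene (Bex) mean. Zbtb16 and Zfp46 are lower than Control with both agonists and Zfp37, Zfp385b and Zfp940 are higher.

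Features not used by the naming rule were read from the translated coding sequences. The KRAB A box pattern was found in 18 of the 43 genes listed for bexarotene, of which 17 were higher and 1 (Zfp251) lower. Of the 25 without it, 17 were higher and 8 lower. These 25 included the 3 Zbtb, 2 Zscan and 2 Klf genes, of which 2 Zbtb and 2 Klf genes were lower. The lower Zfp genes without the pattern were Zfp36l2, Zfp219, Zfp787 and Zfp46. Pattern and family were therefore mixed, and nothing is read from these counts. Within the Zfp genes alone, the pattern was found in 18 of 36. The pattern occurred in 159 (33.8%) of the 471 genes matching the naming rule and in 0.865% of all 21838 translated genes, and its absence says only that these residues were not found in the longest transcript. The number of C2H2 patterns ranged from 4 to 22 with a median of 11 in the higher genes and from 0 to 12 with a median of 7 in the lower genes. For V-125 the medians were 11 in the 8 higher genes with a protein and 8 in the 6 lower genes. The Klf genes had 3 fingers each. The lower genes for bexarotene included Klf4, Klf13, Zbtb42 with 5 patterns and Zfp36l2 with 0. Finger number thus varied with family, and nothing is read from these medians. Outside the naming rule, 1 further gene with both patterns was listed, 2610021A01Rik, at an authors' mean of 370.4 with bexarotene and 195.8 in Control.

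**Figure D4:**
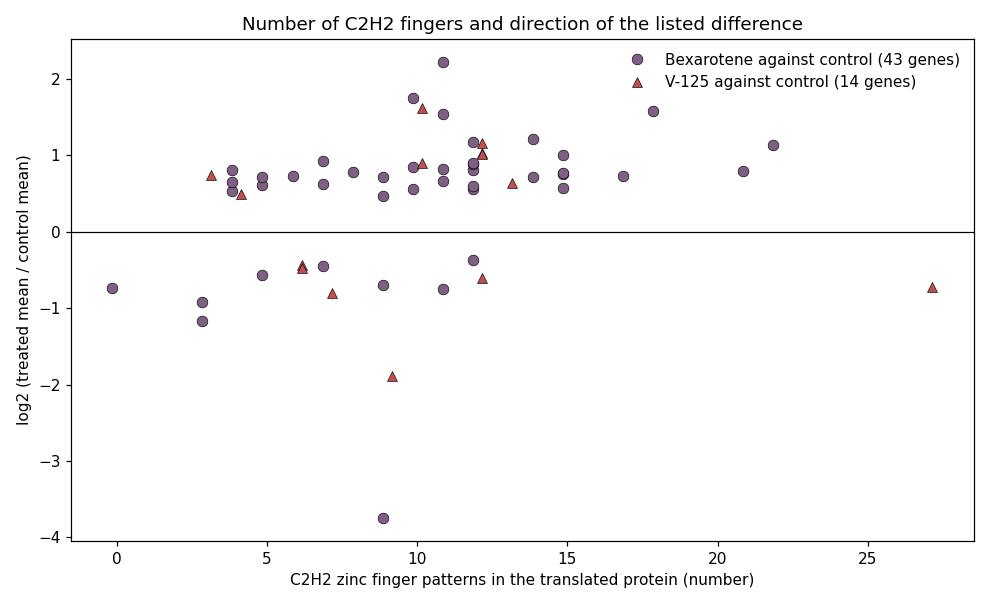
Number of C2H2 finger patterns in the translated protein (horizontal axis) against the log2 ratio of the treated mean to the Control mean (vertical axis), with 1 point per gene and comparison (purple circles bexarotene, red triangles V-125; genes in both tables appear in both). Genes with 13 or more fingers lie above 0 apart from Zfp521, with 27 fingers, listed for V-125.

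Several listed genes were neighbours in the genome, as is usual for families that grew by tandem duplication. Within 1 Mb of each other lay 6 of the 15 genes listed for V-125, in 3 pairs, and both genes of each pair had the same direction: Zfp472 with Zfp955b, Zfp775 with Zfp862-ps, and Zfp637 with Zfp239. For bexarotene, 15 of the 43 genes formed 10 such pairs, and 9 pairs had the same direction. Pairs join consecutive listed genes, and any unlisted genes between them were passed over. Since 34 of the 43 genes were higher, like directions are common in any pairing, and nothing is read from these counts. A run of 6 listed genes on chromosome 17 (Zfp948, Zfp820, Zfp995, Zfp943, Zfp758 and Zfp946) had higher means, with ratios from 1.52 for Zfp758 to 1.85 for Zfp820. All 6 carry the KRAB A box pattern, and the printed boxes of Zfp943 and Zfp995 have the same bases. The highest shared fraction of 75-base stretches in this run was 5.69%, for Zfp995. The pair of unlike direction was Zfp787, which was lower, and Zfp28, which was higher.

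Promoters of 44 of the 53 genes were found in RefSeq on GRCm38.p6, from 250 bases before to 50 bases after the start. A gene was counted if any of its promoters held the match. AGGTCA, the core element that RXR and its partners bind, occurred on either strand in 13 of the 44 (29.5%) and in 18.1% of the 27025 genes with a promoter. The 13 included genomic neighbours (Zfp970 with Zfp971, Zfp943 with Zfp758, and Zfp141 with Zfp977 and Zfp976), so their matches may not be independent. A pair of AGGTCA in the same orientation 1 base apart was in 0 of the 44 and in 0.0481% of all these genes. GGGCGG, the GC box to which Klf proteins bind, occurred in 21 of the 44 (47.7%) and in 38.2% of all these genes. A match is a string of letters and not a bound site, and nothing is read from these shares.

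Other zinc finger regulators and the partners of KRAB and BTB domains were looked up from lists. Beside the counts below, listed genes made up an estimated 8.95% (V-125) and 9.36% (bexarotene) of the genes in the authors' adjustment. Of all listed genes, 51.4% (V-125) and 43.3% (bexarotene) had higher means, and nothing is read from the counts. Of 76 other zinc finger transcription factor genes, the V-125 table held 5 and the bexarotene table held 8, with 3 higher in each. Prdm1, the plasma cell and effector T-cell repressor, was the 1 gene of the 5 whose groups did not overlap. Of all genes listed for V-125, 21.1% were higher and 17.6% lower without overlap. Prdm1 was at 94.3 to 129.2 normalized counts in V-125 tumors and at 26.4 to 85.5 in Control tumors. Bcl6, which opposes Prdm1 in B cells, was at an authors' mean of 210.8 with bexarotene and 418.5 in Control. Of 20 KRAB and BTB co-repressor genes, the V-125 table held none and the bexarotene table held 3, all higher: Mphosph8, Pphln1 and Morc3. Mphosph8, a subunit of the HUSH silencing complex, was at 656.6 and 421.9. Trim28 and Setdb1 were not listed. Early response genes respond within minutes to handling and growth signals. Of 21 symbols of such genes, the V-125 table held 4 (3 lower) and the bexarotene table held 6 (5 lower). The symbols Cyr61 and Ccn1 in that list name the same gene. Nr4a2 was the higher gene in both, at 122.6 to 176.6 in V-125 tumors and 75.9 to 118.7 in Control tumors. Its authors' mean was 184.4 with bexarotene and 94.1 in Control. Fos was at 170.3 with bexarotene and 369.8 in Control, and Junb at 697.5 and 1710. Klf4 is also an early response gene, and the part of this response in its value was not tested.

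Cell type markers differed between the groups beside these genes. The 2 listed luminal epithelial markers of 7, Epcam and Cdh1, summed to 34079 to 41053 normalized counts in V-125 tumors and to 43376 to 62618 in Control tumors. Epcam alone did not overlap, at 28485 to 34948 and 37941 to 53468, whereas Cdh1 did, at 4565 to 6523 and 5436 to 9150. Krt8 and Krt18, the luminal keratins listed for bexarotene, had ratios of authors' means of 0.723 and 0.680. Of 5 basal epithelial markers, the contractile gene Acta2 was listed for V-125, at 88.8 to 609.1 and 497.6 to 951.1, and for bexarotene Myh11 (ratio 2.88) and Oxtr (0.547). The fibroblast marker Pdgfrb, 1 of 7, had a bexarotene ratio of 0.598, and the adipocyte marker Plin4, 1 of 5, had 4.64, from means of 52.4 and 11.3. Of the 10 myeloid markers, 1 (Itgam) was listed for V-125 and was lower, and 5 were listed for bexarotene, all lower. C1qa, a macrophage complement gene, was at 751.9 with bexarotene and 2023 in Control. Of 12 T and NK cell markers and 7 B and plasma cell markers, 1 each (Cd2 and Mzb1) was listed for V-125 and none for bexarotene. Myh4, a skeletal muscle myosin, was at 20.9 and 4.23 in V-125 replicates 3 and 4 and at 0 in the other 6 tumors. Markers that were not listed have no values here, and the part of cell composition in the zinc finger values was not tested.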

How the data were processed

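RNA of 12 MMTV-Neu mammary tumors was measured, 4 per diet; the labels gave the groups, and the study's methods gave the dose and duration. Per the labels, the authors' processing notes name STAR (2.6.1d), featureCounts (1.5.0-p3) and limma; the genome build is not given in the sources used here. Of the gene identifiers in the V-125 table, 1583 were found in GENCODE mouse release 21 on GRCm38, 1532 with identical coordinates.

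For V-125 the authors deposited raw read counts per tumor, a normalized count signal (counts divided by 1 size factor per tumor, 0.865 to 1.25) and FPKM. For bexarotene the authors' deposited group means of this signal were used. The deposited p-values served to check that 0 listed genes were at or above 0.05. With the deposited adjusted p-values, they also served to estimate how many genes the authors' adjustment covered (15310 and 18687). The authors also deposited their fold changes, a log10 form of the adjusted p-values and a log2 fold change multiplied by a constant, as a score. None of these were used.

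Members and gene lists were chosen with earlier results of these data known. The counts of all listed V-125 genes were fitted with edgeR (4.0.16, quasi-likelihood, filterByExpr, offsets from the deposited size factors), so the variance estimates rest on the listed genes only. P-values were adjusted over the estimated number of genes in the authors' own adjustment. limma-voom (limma 3.58.1) and DESeq2 (1.42.0) were alternatives in R 4.3.3, and the fits were tested on simulated data. Single genes were compared by a two-sided exact permutation test of log2(normalized count + 1), over all 70 assignments of 8 tumors. Named were all Klf, Zbtb and Zscan genes, Zfp genes with the 8 largest increases and decreases by edgeR at a mean of at least 50, genes in both tables, genes without a C2H2 pattern and the 5 highest in FPKM; Zfp354c and the other bexarotene Zfp genes were named after their values were seen. The C2H2 pattern was C, 2 to 4 residues, C, 12 residues, H, 3 to 5 residues, H. Protein patterns were read from translated GENCODE transcripts, in place of the RefSeq proteins planned. Shared sequence is the share of 75-base stretches of 1 transcript per gene that were found in any transcript of another gene. That transcript was the one with the longest translation or, without a translation, the longest one. Tumors with the same replicate number were different mice, and deviations from the group means correlated between -0.172 and 0.0889 within the 4 same-numbered pairs. No 2 tumors had identical counts, and r between tumors was 0.825 to 0.969. P-values measure the spread between tumors, and depth limits genes of few reads such as Zfp940.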

Additional observations from a re-analysis of the deposited data

Results flagged for a closer look

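In 2 of the 30 groups of 4 tumors examined (15 genes, V-125 and Control), 1 tumor stood farther from the rest than Dixon's 95% limit for 4 samples allows, and chance alone gives this in about 1 in 20 groups. Klf2 was at 473.1 normalized counts in V-125 replicate 1, and 0.837 of the range of the V-125 tumors lay between that tumor and the next. Zfp940 was at 40.9 normalized counts in V-125 replicate 1, with a gap of 0.833 of the range. Both values come from the tumor that also held the highest Cd2 and Mzb1 counts. The contractile gene Acta2 was at 609.1 in that tumor and at 198.6 or less in the other V-125 tumors. The part of lymphocytes or other cells in the Klf2 and Zfp940 values was not tested. Without its highest V-125 tumor, the ratio of means to Control was 1.32 for Klf2 and 2.63 for Zfp940.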

How the results depend on the processing

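The number of zinc finger genes called by edgeR for V-125 was 0 and became 1 with DESeq2 (Zfp775); the cause was not tested. It was 0 with limma-voom, with TMM factors, without the filter on low counts and, as a range, 0 to 0 with each tumor left out. The genes whose groups did not overlap numbered 6 to 7 (higher) and 4 to 5 (lower) with each tumor left out, and the direction counts stayed at 9 and 6. For bexarotene the counts were 34 and 9 also after a filter at a mean of 10, and 28 and 9 in an alternative chosen after seeing the data, without genes sharing more than 10% of their 75-base stretches. Of 195 refitted values of single genes, 0 reversed in sign and 1 passed the threshold newly (Zfp775 in DESeq2). Leaving out V-125 replicate 1 moved Klf2 from 0.75 to 0.40 on the log2 scale, leaving out Control replicate 1 moved Zbtb16 from -1.88 to -1.30, and Zfp940 ranged from 1.22 without Control replicate 1 to 2.23 without Control replicate 2. With the replicate number as a block, 0 zinc finger genes were called and 7 passed an unadjusted p under 0.05 in edgeR, against 12 without the block, while over all 1333 fitted genes 781 passed, against 953; the samples share only a number, and not every tumor correlated best with its own number. Limits are the listing by p-value, 4 tumors per group, no spread for bexarotene, counts of related genes that share sequence, and low counts such as those of Zfp940.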
